A study of Mus musculus with 6 samples.

Results

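The 7 genes described here encode transcription factors of the ETS family that act downstream of the kinase ERK: Etv1, Etv4, Etv5, Ets1, Ets2, Elk1 and Elk3. They were taken by gene symbol from a table of 54752 genes, and each symbol matched a single Ensembl identifier. The cells were NIH/3T3, an established mouse fibroblast line of embryonic origin, and their RNA was sequenced once rRNA had been depleted. They were kept for 72 h in 3 groups of 2 replicates each. The vehicle group received PBS, the DMSO group received TGF-β1 (1 ng/ml) together with DMSO, and the BI6727 group received TGF-β1 (1 ng/ml) together with BI6727 (5 μM), which blocks the mitotic kinase PLK1. Since the vehicle was PBS, TGF-β1 and DMSO cannot be told apart in the comparison of these groups, and nothing in the labels says whether the replicates were separate cultures. The p-values below therefore measure the spread between these samples, which may be technical, and all cells come from a single line.

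TGF-β1 turns fibroblasts into contractile, matrix-producing myofibroblasts, and part of its signal runs through RAS, RAF, MEK and ERK rather than through SMAD proteins. ERK enters the nucleus and phosphorylates ETS factors, which bind DNA at a GGAA core through a conserved ETS domain. Etv1, Etv4 and Etv5 form the PEA3 subfamily, whose genes are themselves often transcribed in response to ERK. Ets1 and Ets2 are activated by ERK at a site beside their Pointed domain. Elk1 and Elk3 are ternary complex factors, which bind next to the serum response factor SRF at immediate early genes such as Fos and Egr1, and Elk3 represses transcription until it is phosphorylated. The comparisons below ask whether the RNA of these factors differed with TGF-β1 and with BI6727. RNA counts carry no information on phosphorylation.

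The libraries held 18362378 to 24452153 counts on genes, and 18911 to 19891 genes had counts in a library. Each of the 10 fibroblast markers listed (Col1a1, Col1a2, Col3a1, Vim, Thy1, Pdgfra, Pdgfrb, S100a4, Fn1 and Ddr2) passed the filter of at least 10 CPM (the count of a gene relative to the total of its library) in more than 3 samples. None of the 6 epithelial markers (Epcam, Cdh1, Krt8, Krt18, Krt5 and Cldn4) or the 5 blood cell markers (Ptprc, Spi1, Cd68, Itgam and Cd3e) passed. Their summed levels were at most 1.28 and 4.78 normalized CPM in any library, with Krt18, Krt5 and Cd3e at 0 throughout. The 6 endothelial markers (Pecam1, Cdh5, Kdr, Tek, Vwf and Erg) also failed the filter. DMSO replicate 2 stood apart from the other libraries: its shortest genes, under 2620 bases of exon, lay at a median of 0.22 above the mean of the 6 libraries on the log2 scale, and its longest, above 6923 bases, at a median of -0.25. The other 5 libraries stayed within 0.1 at both ends. Replicates of the DMSO group also differed most, with an SD of 0.377 for their log2 difference over all genes, against 0.163 for vehicle and 0.147 for BI6727.

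The family resemblance that defines these genes can be read in the stretch of coding sequence that the 7 share most closely. It spans 60 bases in the region coding for the ETS domain and is given in the sense direction, from the Gencode M21 transcripts of mm10, with the 33 bases identical in all 7 genes in capitals.
Etv1: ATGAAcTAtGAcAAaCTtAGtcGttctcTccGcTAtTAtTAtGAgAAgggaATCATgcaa
Etv4: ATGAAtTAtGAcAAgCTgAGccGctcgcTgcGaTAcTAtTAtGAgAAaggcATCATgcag
Etv5: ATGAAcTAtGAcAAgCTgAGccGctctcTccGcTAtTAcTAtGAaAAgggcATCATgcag
Ets1: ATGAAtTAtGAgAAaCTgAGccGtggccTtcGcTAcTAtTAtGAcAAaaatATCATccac
Ets2: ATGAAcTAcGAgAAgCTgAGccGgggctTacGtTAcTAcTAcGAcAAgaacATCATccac
Elk1: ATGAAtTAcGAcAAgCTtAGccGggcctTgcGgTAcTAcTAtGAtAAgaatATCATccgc
Elk3: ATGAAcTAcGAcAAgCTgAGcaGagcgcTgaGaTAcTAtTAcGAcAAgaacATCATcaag

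The middle of this window lay at 82.4%, 82.5% and 84.1% of the coding sequence in Etv1, Etv4 and Etv5, and at 89.3% and 89.7% in Ets1 and Ets2, toward the end of the protein. In Elk1 and Elk3 it lay at 14.9% and 15.4%, near the start. Identity over the 60 bases ran from 65.0% between Etv1 and Ets2 to 86.7% between Etv5 and either of its subfamily partners, with 81.7% between Ets1 and Ets2 and 75.0% between Elk1 and Elk3. Even so, none of the 21 pairs of members shared a run of 25 identical bases in their transcripts, so reads of that length or longer that match without a difference belong to a single member.

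Reads can still be shared with other genes. Etv1 lies on chromosome 12 (38779380 to 38870484 of mm10, plus strand) and Etv5 on chromosome 16 (22381309 to 22439719, minus strand). Of the 50-base windows of Etv1 transcripts, 9.08% occur in another gene, nearly all of them (8.42%) in Gm5454 on chromosome 13, and 24.5% of the windows of Etv5 occur in Gm4798 on chromosome 10. The annotation calls both of these processed pseudogenes, intronless copies of an RNA. Elk3 (chromosome 10, 93247414 to 93311135, minus strand) overlaps exons of Cdk17 on the opposite strand over 316 bases, 6.95% of its exon length, and since the setting for strand is not given in the sources used here, reads from this overlap cannot be told apart. Elk1 (chromosome X, 20933395 to 20950608, minus strand) overlaps exons of Uxt over 1.41% of its exon length. Etv4 (chromosome 11, 101769742 to 101785371, minus strand), Ets1 (chromosome 9, 32636221 to 32757820, plus strand) and Ets2 (chromosome 16, 95702075 to 95721051, plus strand) shared no window with any other gene.

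All 7 genes passed the filter, with 307 counts (Etv1, DMSO replicate 2) to 3029 counts (Ets1, DMSO replicate 1) per gene and library. Levels of different genes were compared as normalized CPM per kilobase of exon, since the exons of Etv1 add up to 13296 bases and those of Etv4 to 3104. In the vehicle group Elk3 was the most abundant on this scale at 25.5 ± 0.292 (SD, n = 2), followed by Etv4 at 21.7 ± 1.52, Ets2 at 14.4 ± 1.25, Ets1 at 11.4 ± 0.614, Etv5 at 11.1 ± 1.25, Elk1 at 7.95 ± 0.187 and Etv1 at 3.11 ± 0.107. Among neighbours in this order, the libraries of Ets1 and Etv5 overlapped and those of all other neighbours did not.

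With TGF-β1 and DMSO the order per kilobase was Etv4 at 40.7, Elk3 at 25.4, Ets1 at 16.0, Etv5 at 11.5, Ets2 at 9.16, Elk1 at 8.27 and Etv1 at 1.21, and the libraries of Ets2 and Elk1 overlapped. Etv4 thus took the place of Elk3 at the top, and Ets2 moved below Ets1 and Etv5. The BI6727 group kept the order of the DMSO group, at 32.1, 25.7, 14.1, 12.4, 10.2, 8.16 and 1.54, with no overlap between neighbours. Without division by length, Ets1 led in both groups given TGF-β1, with libraries that overlapped those of the next gene, and Elk3 led in the vehicle group, while Etv1 was last in all 3 groups on either scale.

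**Figure D1:**
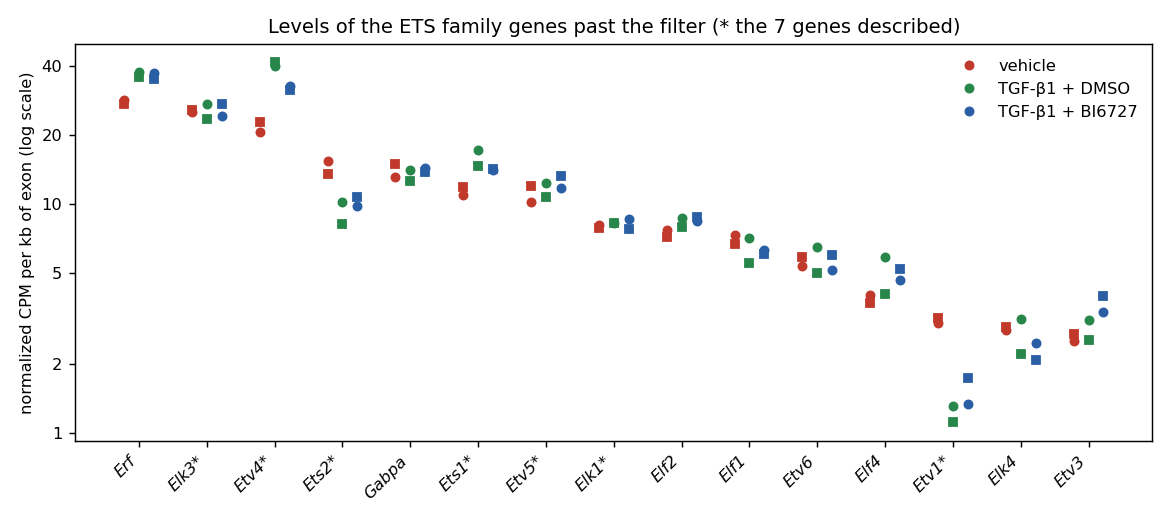
Normalized CPM per kilobase of exon (log scale) in each library for the 15 ETS family genes that passed the filter, ordered by level in vehicle, with circles for replicate 1 and squares for replicate 2 and an asterisk on the 7 genes described. Etv4 lies at 20.6 and 22.8 in the vehicle libraries and at 39.8 and 41.6 in the DMSO libraries, while Etv1 lies at 3.03 and 3.19 and then at 1.31 and 1.11.

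The members of the PEA3 subfamily moved in opposite directions with TGF-β1: Etv4 rose, Etv1 fell, and Etv5 did not pass the test. Ets1 rose and Ets2 fell, and neither Elk1 nor Elk3 passed. So 2 of 7 members rose and 2 fell at an adjusted p below 0.05 in edgeR's quasi-likelihood test, against 11.0% of all 9518 genes tested that rose and 12.0% that fell (23.0% in either direction). The DMSO and vehicle libraries did not overlap in 5 of the 7, and in 62.9% of all genes tested. These are values of bulk RNA, in which fewer cells of a type and less RNA per cell cannot be told apart.

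Etv4, also known as Pea3, was at 64.0 and 70.7 normalized CPM with vehicle, 123 and 129 with DMSO, and 102 and 97.7 with BI6727. The 3 groups did not overlap, with DMSO highest, BI6727 in the middle and vehicle lowest. Against vehicle, Etv4 was 1.88-fold higher in the DMSO group, with a log2 fold change of 0.91 (SE 0.0975, 95% interval 0.68 to 1.14, edgeR adjusted p = 0.000936). It passed in each of the 12 other fits that kept both replicates of the groups compared, with adjusted p from 6.3e-11 to 0.00607, and in the 6 fits that each left out a library, where the log2 fold change ran from 0.83 to 0.98.

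Etv1, also known as Er81, moved the other way. Its libraries were at 40.3 and 42.4 normalized CPM with vehicle, 17.4 and 14.8 with DMSO, and 17.9 and 23.1 with BI6727. Every library given TGF-β1 was below both vehicle libraries. The mean fell by 61.1% from vehicle to DMSO, and the log2 fold change was -1.36 (SE 0.168, 95% interval -1.75 to -0.97, edgeR adjusted p = 0.00171), which made Etv1 the only member of the 7 past the stricter threshold of the study, an adjusted p below 0.01 with a fold change above 2 (2.53% of all genes tested were lower by that rule). Its call held in each of the 12 other fits, with adjusted p from 8.81e-13 to 0.00473, and without any of the 6 libraries in turn, with a log2 fold change of -1.49 to -1.24. The threshold of the study was missed without vehicle replicate 1 (edgeR adjusted p = 0.0277) or vehicle replicate 2 (0.0293).

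Etv1 is a long gene, and DMSO replicate 2 held fewer counts on long genes. After removal of the trend on gene length from each library, the log2 fold change of Etv1 was -1.15 (edgeR adjusted p = 0.000281), within the range of adjusted p given above. Without DMSO replicate 2 it was -1.24. The intronless copy Gm5454 (chromosome 13, 103356252 to 103357704) had 16.4 and 18.7 normalized CPM with vehicle, 6.76 and 7.03 with DMSO, and 10.0 and 10.4 with BI6727, so its groups ran in the same order as the means of Etv1. Which of the 2 loci gave these reads was not tested. With the counts of Gm5454 added to those of Etv1, the log2 fold change was -1.36 (edgeR adjusted p = 0.000745).

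Etv5, also known as Erm, was at 41.8 and 49.1 normalized CPM with vehicle, 50.4 and 44.1 with DMSO, and 48.0 and 54.1 with BI6727. The 3 groups overlapped. The log2 fold change of DMSO against vehicle was 0.056 (95% interval -0.26 to 0.38, edgeR adjusted p = 0.781), and with the counts of Gm4798 added it was 0.016 (adjusted p = 0.945, the highest of the 12 other fits, the lowest being 0.718). A difference of the size seen in Etv4 or Etv1 lies outside this interval.

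**Figure D2:**
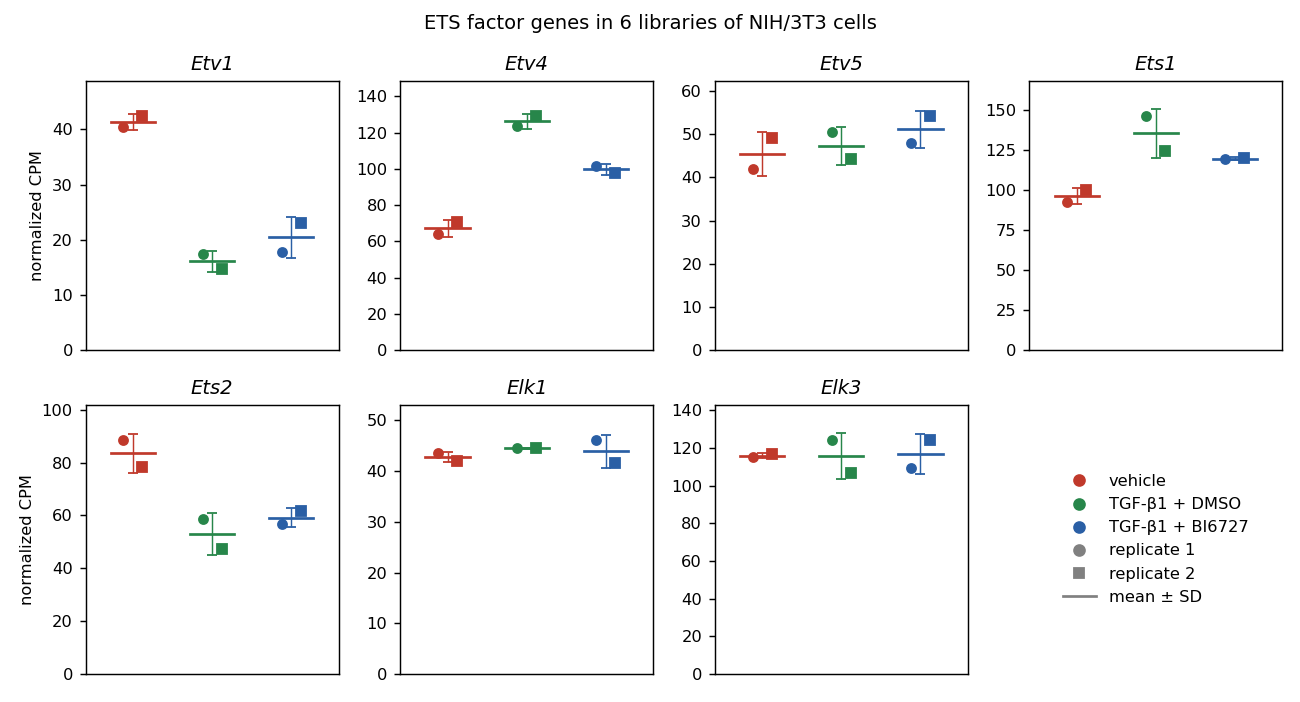
Normalized CPM of the 7 genes in the 6 libraries (circles replicate 1, squares replicate 2), with the group mean as a horizontal line and the SD as a bar (n = 2), each panel on its own linear axis from 0. Etv1 and Ets2 are higher in both vehicle libraries than in the other 4, Etv4 and Ets1 are lower there, and the groups of Etv5 and Elk3 overlap.

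Ets1 was at 92.8 and 100.2 normalized CPM with vehicle, 146 and 125 with DMSO, and 119 and 120.4 with BI6727. Both DMSO libraries lay above all others, and the BI6727 libraries lay between them and vehicle. Ets1 was 1.4-fold higher with DMSO than with vehicle, a log2 fold change of 0.49 (SE 0.109, 95% interval 0.23 to 0.74, edgeR adjusted p = 0.0185). It passed in 11 of the 12 other fits, with adjusted p from 0.000461 to 0.0573, the fit of only the 2 groups compared being the exception. The call was lost without vehicle replicate 1 (adjusted p = 0.176), vehicle replicate 2 (0.102), BI6727 replicate 1 (0.0615) or BI6727 replicate 2 (0.0637), and it held without either DMSO replicate. Ets1 is also expressed in endothelial cells, and the summed level of the 6 endothelial markers was 5.30 and 7.55 normalized CPM with vehicle, 18.3 and 12.0 with DMSO, and 10.3 and 10.8 with BI6727. Vwf made up most of it (4.88 to 14.5), Kdr was at 0 in all libraries, Erg and Tek were at most 0.33, Pecam1 ran from 0.21 to 1.16, and Cdh5 ran from 0 to 3.09. The part of these markers in the Ets1 result was not tested.

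Ets2 was at 88.6 and 78.4 normalized CPM with vehicle, 58.7 and 47.2 with DMSO, and 56.6 and 61.8 with BI6727. The 4 libraries given TGF-β1 lay below both vehicle libraries, and the DMSO and BI6727 groups overlapped. The mean fell by 36.5% from vehicle to DMSO, a log2 fold change of -0.66 (SE 0.138, 95% interval -0.98 to -0.33, edgeR adjusted p = 0.0152). It passed in each of the 12 other fits (adjusted p from 0.000161 to 0.0446), and the call was lost without vehicle replicate 1 (0.144) or vehicle replicate 2 (0.0745). The members with a Pointed domain, Ets1 and Ets2, thus moved in opposite directions.

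Elk1, the founding ternary complex factor, was at 43.5 and 42.1 normalized CPM with vehicle, 44.5 and 44.5 with DMSO, and 46.2 and 41.6 with BI6727. Both DMSO libraries lay above both vehicle libraries by a margin of about 1 normalized CPM, which is also true of 29.8% of the genes tested. The log2 fold change was 0.056 (95% interval -0.21 to 0.32, edgeR adjusted p = 0.733). Elk3, also known as Net, was at 115 and 117 normalized CPM with vehicle, 124 and 107 with DMSO, and 110 and 124 with BI6727. Its groups overlapped in every comparison, and the log2 fold change of DMSO against vehicle was -0.0033 (95% interval -0.27 to 0.26, adjusted p = 0.987). Of the 7 members, Elk1 and Elk3 had the narrowest range of group means, within 5% of vehicle in each treated group.

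**Figure D3:**
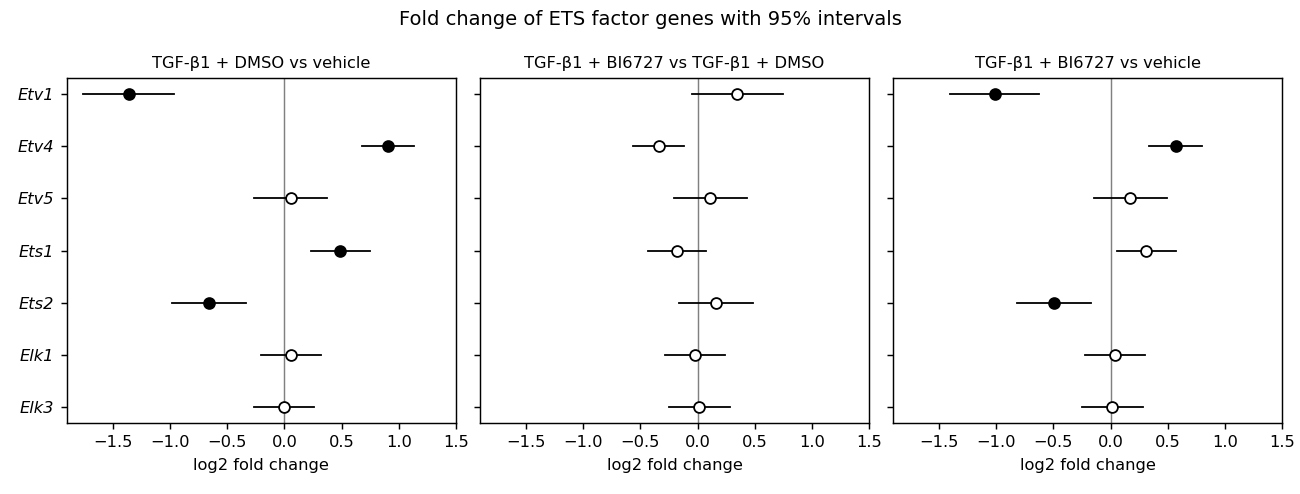
Log2 fold change of each gene in the 3 comparisons with its 95% interval, filled where the edgeR adjusted p was below 0.05. Etv1, Etv4, Ets1 and Ets2 are filled for DMSO against vehicle, none is filled for BI6727 against DMSO, and Etv1, Etv4 and Ets2 are filled for BI6727 against vehicle.

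None of the 7 members passed the test between BI6727 and DMSO. By edgeR no gene of the 9518 passed (0%), and 6.68% of genes had an unadjusted p below 0.05. Of the members, Etv4 alone had an unadjusted p that low (0.00902). With DESeq2, 2 genes were higher and 37 lower, none of them a member.

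The group means of the 4 genes that had moved with TGF-β1 lay, with BI6727, between those of DMSO and vehicle. These 4 were selected by a difference that uses the same DMSO libraries, and the share of all genes tested with such a mean is not given here. The mean of Etv4 with BI6727 was 0.79 times that with DMSO and the groups did not overlap, a log2 fold change of -0.34 (SE 0.0964, 95% interval -0.57 to -0.11, edgeR adjusted p = 0.606). For Etv1 it was 1.27 times that with DMSO, again without overlap, at 0.35 (95% interval -0.05 to 0.74, adjusted p = 0.747). For Ets1 the value was -0.18 (-0.43 to 0.08, adjusted p = 0.781), without overlap, and for Ets2 it was 0.16 (-0.16 to 0.49, adjusted p = 0.849), with overlap. So 3 of the 7 members did not overlap between these groups, and 34.1% of all genes tested did not. These differences share the DMSO libraries with those against vehicle, so the 2 sets of values are not independent.

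The remaining members were closer to 0, with 0.11 for Etv5 (-0.21 to 0.43, edgeR adjusted p = 0.889), -0.021 for Elk1 (-0.28 to 0.24, adjusted p = 0.973) and 0.015 for Elk3 (-0.25 to 0.28, adjusted p = 0.982). A log2 fold change beyond 0.43 in either direction thus lay outside all 3 intervals.

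Leaving out a DMSO library changed these calls. Without DMSO replicate 1 the call was made for Etv4 (log2 fold change -0.37, edgeR adjusted p = 0.00314), Etv1 (0.48, adjusted p = 0.033) and Ets2 (0.33, adjusted p = 0.0234). Without DMSO replicate 2 it was made for Etv4 (-0.32, adjusted p = 0.0316) and Ets1 (-0.30, adjusted p = 0.0348). In both fits the remaining DMSO library is assumed to vary like the other groups, and 1561 genes were higher and 1455 lower without DMSO replicate 1, against 226 and 419 without DMSO replicate 2. In the 12 other fits that kept all libraries of the groups compared, the adjusted p of Etv4 lay between 0.305 and 0.981 and no member passed. With the length trends removed, Etv4 was at -0.30 (adjusted p = 0.305), Etv1 at 0.22 (0.616), Ets1 at -0.23 (0.375) and Ets2 at 0.15 (0.668).

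**Figure D4:**
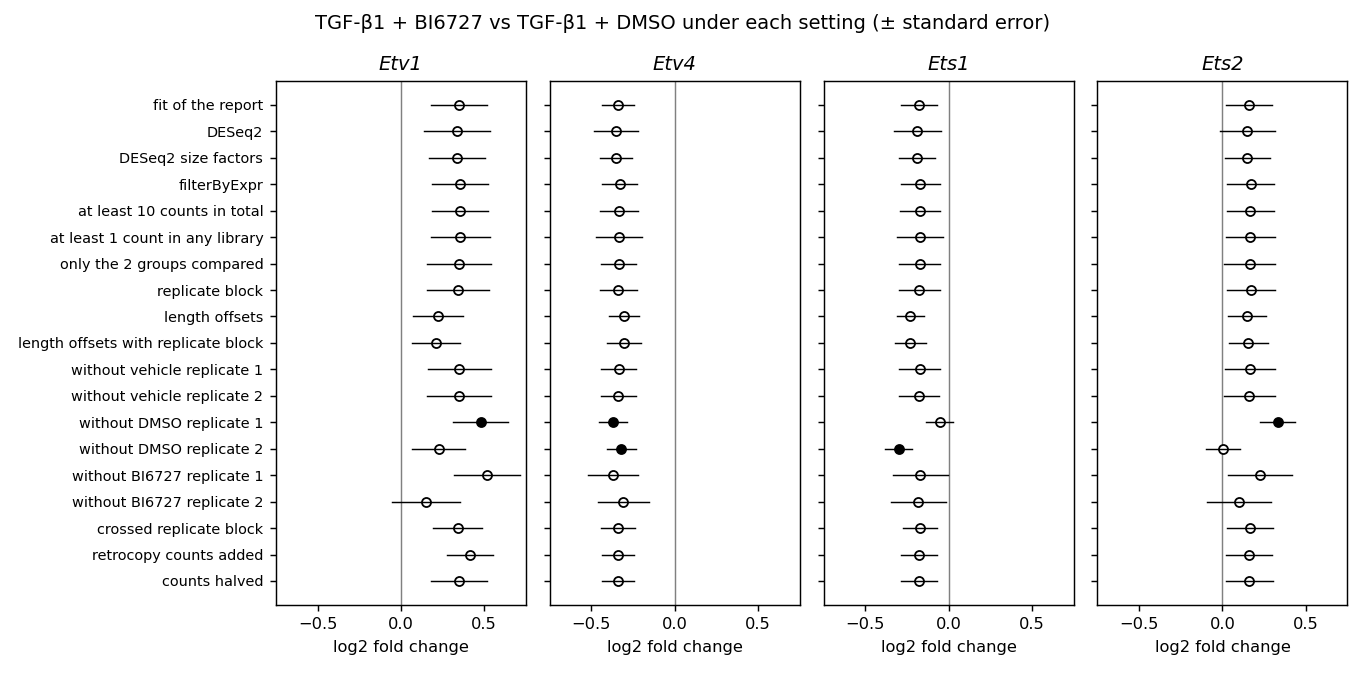
Log2 fold change of BI6727 against DMSO with its standard error for Etv1, Etv4, Ets1 and Ets2 in the fit reported and in each alternative, filled where the adjusted p was below 0.05. Etv4 stays between -0.37 and -0.30 in all settings, while Ets2 ranges from 0.0015 to 0.33 and Ets1 from -0.30 to -0.054 as a DMSO library is left out.

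Against vehicle, 1 of 7 members was higher and 2 were lower with BI6727, where 11.3% and 13.2% of all genes tested were (24.5% in either direction). The libraries did not overlap in 4 of the 7, and in 76.8% of all genes tested. Etv4 rose by a log2 fold change of 0.57 (SE 0.0973, 95% interval 0.34 to 0.79, edgeR adjusted p = 0.00639). Etv1 fell, at -1.01 (SE 0.165, 95% interval -1.40 to -0.62, adjusted p = 0.0051), and so did Ets2, at -0.49 (SE 0.138, 95% interval -0.82 to -0.17, adjusted p = 0.0382). By the threshold of the study Etv1 was lower, as 2.96% of all genes tested were, but only in 5 of the 12 other fits. It missed it with 3 other low-count filters, the length trend removed with and without the replicate block, or the counts of Gm5454 added (log2 fold changes of -0.998 to -0.92, so a fold below 2), and with the replicate block alone (edgeR adjusted p = 0.0124). Ets1 was at 0.31 (95% interval 0.06 to 0.57, adjusted p = 0.0777) and missed the threshold, but passed in the fit of only the 2 groups compared (0.000916), with the length trend removed (0.00651, and 0.0126 with the replicate block as well) and without DMSO replicate 1 (0.000854) or 2 (0.000922). Over the 12 other fits its adjusted p lay between 0.000916 and 0.130.

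The remaining members were at 0.17 for Etv5 (edgeR adjusted p = 0.407), 0.035 for Elk1 (0.849) and 0.012 for Elk3 (0.95). This comparison uses the same vehicle libraries as that of DMSO against vehicle, so the likeness of their values is not independent. Without vehicle replicate 1, no member passed (adjusted p 0.0541 for Etv1, 0.0949 for Etv4 and 0.253 for Ets2), nor did any without BI6727 replicate 1 (0.0618, 0.0831 and 0.249). Etv1 and Ets2 were lost without vehicle replicate 2 (0.0609 and 0.122), and Etv4 and Ets2 without BI6727 replicate 2 (0.0634 and 0.145). Both Etv1 and Etv4 passed in all 12 other fits (adjusted p up to 0.0124 and 0.0165), and Ets2 in 11, with 0.0598 when the replicate number was a block.

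Of the other 20 ETS family genes listed, 8 passed the filter. With TGF-β1 and DMSO 11.0% of all genes tested rose and 12.0% fell, and of these 8 genes 1 rose and none fell. It was Erf, a repressor that leaves the nucleus when ERK phosphorylates it, at 102 and 98.6 normalized CPM with vehicle, 135 and 130 with DMSO, and 134 and 126 with BI6727. All 4 libraries given TGF-β1 were above both vehicle libraries, with a log2 fold change of 0.40 for DMSO against vehicle (edgeR adjusted p = 0.0205), -0.02 for BI6727 against DMSO (adjusted p = 0.964) and 0.38 for BI6727 against vehicle (adjusted p = 0.0242). Erf was also the most abundant of the 8 per kilobase of exon (a group mean of up to 36.7 normalized CPM per kilobase, against 14.1 for Gabpa, the next, which serves nuclear genes of mitochondria). The median log2 fold change of the 8 genes was 0.072 with DMSO against vehicle, and that of all genes tested was -0.0045. Elk4, the other ternary complex factor, was at 18.3 ± 0.318 normalized CPM with vehicle and 17.1 ± 4.30 with DMSO (SD, n = 2). The 12 genes that failed the filter include Fli1 and Erg of endothelial and blood cells, Spi1, Spib and Spic of blood cells, and Elf3, Elf5, Ehf and Spdef of epithelia.

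Upstream, 19 of 21 listed genes of the ERK cascade passed the filter. Of these, 1 rose and 2 fell with TGF-β1 and DMSO, against 11.0% and 12.0% of all genes tested. Their median log2 fold change was -0.043. With DESeq2, 2 of the 19 rose and 2 fell, where 1321 and 1301 of all genes did. With the length trends removed 4 rose and 2 fell, at a median of 0.061, where 1515 and 1687 of all genes rose and fell. Map2k1, which encodes the ERK kinase MEK1, rose by 1.03 (edgeR adjusted p = 0.000344), from 124 and 123 normalized CPM with vehicle to 248.7 and 256.1 with DMSO, and it was at 251 and 257 with BI6727. The scaffold gene Ksr1 fell by 0.66 (adjusted p = 0.0355) and the ERK-activated kinase gene Rps6ka3 fell by 0.49 (adjusted p = 0.0309). Mapk3, which encodes ERK1, was at -0.19 (adjusted p = 0.201), and against vehicle it fell by 0.41 with BI6727 (adjusted p = 0.0212). The adaptor gene Grb2 rose by 0.34 in that comparison (adjusted p = 0.0296). There 2 genes of the list rose and 2 fell, as did 11.3% and 13.2% of all genes tested.

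All 15 listed partners and regulators of ETS factors passed the filter, at a median log2 fold change of -0.26 with TGF-β1 and DMSO. Of all genes tested 11.0% rose and 12.0% fell in that comparison, and of this list 1 gene rose and none fell. It was Srf, the partner of the ternary complex factors, at 59.9 and 62.4 normalized CPM with vehicle, 80.3 and 82.8 with DMSO, and 65.3 and 64.0 with BI6727. The DMSO libraries stood above the other 4, with a log2 fold change of 0.41 against vehicle (edgeR adjusted p = 0.021). BI6727 against DMSO gave -0.33 for Srf (adjusted p = 0.606), and BI6727 against vehicle gave 0.08 (adjusted p = 0.578). Cic, the repressor of the PEA3 genes that ERK relieves, was at -0.34 with DMSO against vehicle (adjusted p = 0.239), with 202 and 202 normalized CPM in the vehicle libraries and 196 and 125 in the DMSO libraries. DMSO replicate 2, low on long genes, was the low library for Cic. Without it the median of the list was 0.079, with a lone DMSO library left. With the length trends removed the median was -0.17, with Srf and Fbxw7 higher and Det1 lower. Against vehicle, the SRF coactivator gene Mrtfa (0.65, adjusted p = 0.0444) and Fbxw7 (0.68, adjusted p = 0.0362), a ubiquitin ligase component, rose with BI6727.

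Downstream, 18 of 20 listed ERK output genes linked to ETS factors passed the filter. With TGF-β1 and DMSO 6 of the 18 rose and none fell, against 11.0% and 12.0% of all genes tested. Their median log2 fold change was 0.25. Egr2 (2.58), Dusp5 (2.21) and Dusp4 (2.10) also passed the threshold of the study, and Ier3 (0.63), Ccnd1 (0.57) and Dusp6 (0.47) rose less (edgeR adjusted p from 7.61e-05 to 0.0307). Dusp4, Dusp5 and Dusp6 encode phosphatases that switch ERK off. Fos, the classical target of Elk1 and SRF, failed the filter, at 29.0 and 11.5 normalized CPM with vehicle, 2.03 and 3.27 with DMSO, and 3.45 and 4.26 with BI6727, so its vehicle libraries were the highest. Junb, which encodes a partner of Fos, was at 0.44 (adjusted p = 0.0776). With BI6727 against vehicle 7 of the 18 rose, Junb included (0.51, adjusted p = 0.0466), and none fell, against 11.3% and 13.2% of all genes tested.

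Among matrix protease and adhesion genes with known ETS sites, 8 of 13 passed the filter, at a median of 0.82 with TGF-β1 and DMSO. In that comparison 4 rose and 1 fell, each past the threshold of the study. By that rule 244 of all 9518 genes tested rose and 241 fell. Plaur (1.94), Itga5 (1.56), Plau (1.55) and Timp1 (1.36) rose, and the secreted phosphoprotein gene Spp1 fell by 1.42 (edgeR adjusted p from 0.000134 to 0.00129). Vim, the most abundant gene of this list, did not pass in this fit. It did pass with DESeq2, where 5 genes of the list were higher and 1 lower. With the length trends removed Vim also passed, and 5 genes of the list were higher and 2 lower. Of all genes, 1321 were higher and 1301 lower with DESeq2, and 1515 and 1687 with the length trends removed. Fibroblast markers went down in part, with 4 of 10 lower (Thy1 -0.91, Pdgfra -1.87, Ddr2 -1.20 and S100a4 -1.01) and none higher, against 12.0% and 11.0% of all genes tested. With DESeq2 2 of the 10 were higher and 6 lower, where 1321 and 1301 of all genes were. The counts were also 2 and 6 with the length trends removed, where 1515 and 1687 of all genes were higher and lower. The summed level of the fibroblast markers was 8629 to 8945 normalized CPM with vehicle and 8035 to 10630 with DMSO. Their part in the changes of the ETS genes was not tested. Between BI6727 and DMSO no gene of these lists passed by edgeR or DESeq2, with 1 gene each of the other ETS family, ERK cascade and partner lists and 2 of the ERK output list at an unadjusted p below 0.05, and the medians of these lists and the matrix list lay between -0.0615 and 0.051, where that of all genes was -0.0028. The median of the fibroblast markers was -0.18, with 2 of 10 at an unadjusted p below 0.05, where 6.68% of all genes tested were.

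DMSO replicate 2 also bore on the other lists. Without it, the median log2 fold change of DMSO against vehicle was 0.23 for the other ETS family genes and 0.14 for the ERK cascade. It was 0.29 for the ERK output genes, 0.90 for the matrix list and -0.37 for the fibroblast markers. Between BI6727 and DMSO the medians without that library were -0.14 (other ETS family), -0.22 (partners) and -0.062 (ERK cascade). They were 0.016 for the ERK output genes, -0.16 for the matrix list and -0.29 for the fibroblast markers. A lone DMSO library remains in these fits, so no calls are given. With the length trends removed and all libraries kept, no gene of these lists passed between BI6727 and DMSO.

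**Figure D5:**
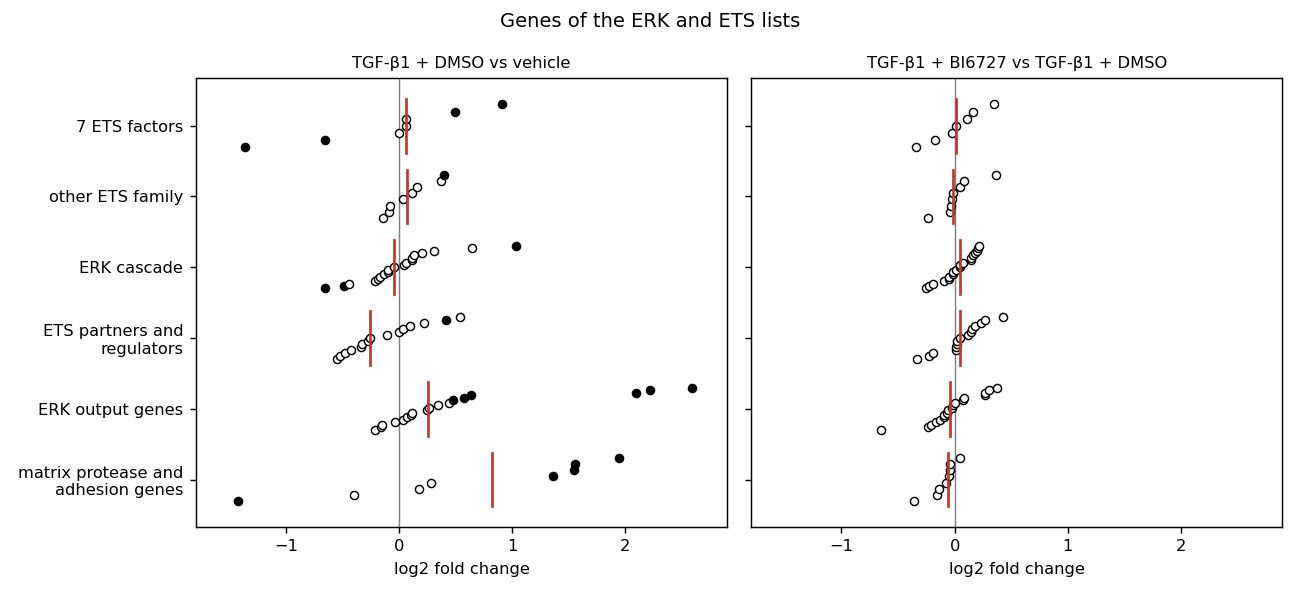
Log2 fold change of every gene past the filter in the 6 lists, for DMSO against vehicle and for BI6727 against DMSO, with filled points where the edgeR adjusted p was below 0.05 and a red line at the median of the list. The 7 ETS factors spread from -1.36 to 0.91 on the left and from -0.34 to 0.35 on the right, where no point is filled.

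Over the 6 libraries, 320 genes had a Pearson r above 0.95 with the log2 CPM of Etv1. The 3 highest were Zfp740 (r = 0.997), 5730455P16Rik (0.997) and Lbh (0.994), whose log2 fold changes between DMSO and vehicle were -0.37, -0.51 and -0.78. These 6 libraries fall into 3 groups of which vehicle stands apart, so that r mostly tells that a gene was higher with vehicle.

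The genomic sequence before the first RefSeq start of Etv1, the member that changed most, is printed as the DNA to which this readout belongs. It is from RefSeq for GRCm38.p6, the assembly of mm10, in the direction of transcription, with GGAA and its reverse complement TTCC in capitals. It covers chr12:38779832-38780081 on the plus strand and ends at the base before that start (38780082). The gene as counted, in Gencode, begins further upstream, at 38779380, so the stretch lies within it, in an intron of the transcript that begins there.
Etv1: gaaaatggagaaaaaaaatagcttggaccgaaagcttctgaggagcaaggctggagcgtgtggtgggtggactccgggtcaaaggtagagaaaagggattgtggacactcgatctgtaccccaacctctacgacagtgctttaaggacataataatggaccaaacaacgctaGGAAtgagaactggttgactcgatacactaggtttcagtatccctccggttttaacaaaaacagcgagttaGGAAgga

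This stretch holds 2 GGAA cores. In windows of 300 bases that also take in the 50 bases after a RefSeq start, GGAA on either strand occurred 5 times at the first start of Etv1 and 1 time at its second, 0 and 6 times at the 2 starts of Etv5, 1 time in Ets2, and 2 times each in Elk1 and Elk3. Of all 32851 such windows, 96.0% held the core, with a median of 3. None of these 7 windows, which belong to 5 of the members, held CCGGAA (14.9% of all windows), the octamers TGAATGAA or TGAATGGA known to bind Cic (2.47%), a CArG box, the site of SRF (1.63%), or TGANTCA, the site of AP-1 (7.81%), each searched on both strands, where a CCGGAA also counts as a GGAA. No match says only that these letters are not in this window. No window was available for Etv4 or Ets1, the members that rose with TGF-β1 and DMSO, so neither was searched.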

How the data were processed

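RNA-seq counts per gene for 6 libraries were used. The authors mapped reads to mm10 with Subjunc (Subread 1.6.4), used featureCounts with the genes of Gencode M20, and deposited raw counts. The setting for strand is not given in the sources used here. Groups and replicate numbers were taken from the sample labels. In R 4.3.3, the 9518 of 54752 genes that reached 10 CPM in more than 3 samples were compared by the edgeR 4.0.16 quasi-likelihood test (TMM scaling, all 6 libraries fitted together without covariates, leaving 3 residual degrees of freedom), with Benjamini-Hochberg adjustment over all genes tested. A gene passed at an adjusted p below 0.05; the threshold of the study, below 0.01 with a fold change above 2, is also given. Normalized CPM divide by the TMM-scaled sum over genes past the filter; log2 CPM used a prior count of 1. The SE was derived from the log2 fold change and F, as |log2 fold change|/√F. The endothelial sums, Fos and Gm5454 are normalized CPM only, since these genes failed the filter.

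Library totals were 18362378 to 24452153 counts. With 2 against 2, an exact permutation test cannot go below p = 0.333, so none was made. Of the counts from 1 to 10, 60.1% were even, so single counts may not be independent; halving all counts left the calls of the members as they were.

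The members and gene lists were chosen with earlier results of these data known. A few list genes are not reported here and were left out of the lists. Genes named are the 7 members, those of each other list that passed in any comparison (at most the 6 with the largest change with TGF-β1 and DMSO) or had the 2 highest levels per kilobase, the 3 genes most like each member past the threshold of the study, and all cell type markers. Fos, Elk4, the genes that share reads or exons with a member and the ETS genes below the filter were named after their values were seen.

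Alternatives were DESeq2 1.42.0, its size factors in edgeR, 3 other low-count filters, a fit of only the 2 groups compared, a replicate block, length offsets (lowess per library, span 0.3) with and without that block, each library left out, and the threshold of the study. Added after seeing the data were a crossed block, the counts of intronless copies added, and all counts halved. Motifs were searched in the RefSeq promoter table with Python 3.11.15.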

Additional observations from a re-analysis of the deposited data

How the results depend on the processing

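With TGF-β1 and DMSO against vehicle, 1043 genes were higher and 1143 lower (2 and 2 members), with BI6727 against DMSO 0 and 0, and with BI6727 against vehicle 1076 and 1257 (1 and 2 members). No called value of the 7 members changed direction under any alternative run. With at least 1 count in any library as the filter, these counts were 1963 and 2052, 30 and 122, and 1848 and 2128. With only the 2 groups compared, they were 615 and 632 (1 member higher) for DMSO against vehicle and 2533 and 2601 (2 members higher) for BI6727 against vehicle. At the threshold of the study they were 244 and 241, and 223 and 282, with 0 members higher and 1 lower in each. BI6727 against DMSO gave 2 higher and 37 lower genes with DESeq2, and lower genes alone numbered 2 with filterByExpr, 2 with at least 10 counts in total, 17 with length offsets, 21 with length offsets and the replicate block, and 1 with counts halved. With either kind of length offsets, 2 members were higher with BI6727 than vehicle.

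With the replicate block, 1 member was lower with BI6727 than vehicle, and it changed no other call of a member (787 and 871 genes higher and lower for DMSO against vehicle, 0 and 0, and 794 and 978). Same-numbered replicates did not deviate together (r = -0.11, 0.047 and -0.26 across genes). With 2 replicates per group these values cannot tell whether the samples were paired in another way. With the numbers crossed, 2 and 2, 0 and 0, and 1 and 2 members were higher and lower in the 3 comparisons.

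When each library was left out in turn, DMSO against vehicle gave 248 to 2698 genes higher and 266 to 2970 lower, with 1 to 2 members each way. BI6727 against DMSO gave 0 to 1561 and 0 to 1455, with 0 to 2 members each way. BI6727 against vehicle gave 269 to 2545 and 337 to 2618, with 0 to 2 members each way. The cause of these moves was not tested, beyond that a group of 1 library rests on the spread of the others. The 7 genes had at least 307 counts per library, and the precision of their values is limited by the 2 libraries per group.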
